A study of Strongylocentrotus purpuratus with 10 samples.

Results

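GataC, Ese, Scl and Z166 are gene names of the sea urchin Strongylocentrotus purpuratus that are grouped here as regulators of blastocoelar cells, and the identity of the Z166 row is less certain than the others. They were taken from the authors' deposited differential table by name, ignoring letter case and copy marks, which gave 5 rows of 3542 because Scl stands on 2 gene copies. Peaks of Brachyury ChIP-seq within 10 kb of each gene were added, which gave 1 of 1484 peaks for antibody library 1, 15 of 7459 for antibody library 2 and 0 of 490 in the authors' combined set.

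Blastocoelar cells are part of the non-skeletogenic mesoderm, a ring of vegetal cells set apart by Delta-Notch signalling. They leave the epithelium during gastrulation, spread through the blastocoel as a network of fibroblast-like and immune cells, and arise from the oral side of the ring, whereas pigment cells arise from the aboral side under the regulator Gcm. GataC is a GATA zinc finger factor, Ese an ETS domain factor and Scl a basic helix-loop-helix factor whose vertebrate counterpart works with GATA factors in blood formation. Z166 is a protein with C2H2 zinc fingers. Brachyury, the T-box factor under study, acts in the endoderm and the oral field.

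The study asked where Brachyury binds in the blastula and how its loss changes expression. Whole embryos were examined 24 h after fertilisation. RNA came from 3 libraries labelled wild type control, with no further treatment given, and 3 libraries of embryos injected as zygotes with 2 to 4 pl of a translation-blocking brachyury morpholino at 200 µM, all described as biological replicates. Chromatin came from embryos reared at 15 °C and fixed with 1% formaldehyde for 12 min, in 2 antibody libraries with 1 matching input library each. It is not stated whether controls received an injection, nor whether the antibody libraries differ by antibody or by sample. A morpholino acts in all cells of the embryo that receive it, and a block of translation leaves the target mRNA in place. The agent on which every fold change below rests is shown here, with the triplets complementary to a start codon in capitals:
brachyury morpholino: cgctCATtgcaggCATagtggcg

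The files give no value or read total per library, so depth and replicate spread are unknown. The numerator of the fold changes is not stated, so signs are given instead of up or down. Every listed gene has an adjusted p under 0.05, and the protein-coding ones among them are 11.8% of the protein-coding genes of the RefSeq gene table, so that the members pass this threshold because of how they were chosen. Brachyury itself (LOC576774) stood at 1.18 on the log2 scale in the authors' deposited table, and its mRNA level does not check a block of translation.

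Protein domains in the table fitted the names of GataC, Ese and Scl. Those of the Z166 row fitted a zinc finger gene, a broad group, and its second name left it less certain. The authors' deposited table lists a GATA zinc finger for GataC (gene symbol GATAc), an Ets domain for Ese (LOC582205) and a helix-loop-helix domain for both Scl copies (LOC587670 and LOC115925133). The Z166 row (LOC589099) carries 2 names, Z166 and Rxr, from 2 older gene models, and is annotated as a zinc finger protein gene. Rxr is the name of a nuclear receptor, but the domains listed are zinc finger domains alone, with C2H2 fingers among them, and the row is classed with retinal genes rather than transcription factors.

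The members split in direction, with GataC, Ese and both Scl copies positive and Z166 negative. This makes 4 of 5 rows positive, beside 48.4% of all table genes, and all 5 had an adjusted p under 0.01, beside 62.4% of table genes. The median log2 fold change of the 5 rows was 1.17, against -0.51 over the whole table. No test was made of these counts, since the members were chosen from this table.

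Scl had the largest positive values. The authors' deposited table gives log2 fold changes of 1.62 (adjusted p = 2.78e-05) for LOC587670 and 1.60 (adjusted p = 0.000127) for LOC115925133, which correspond to 3.08-fold and 3.04-fold. Both rows share a transcript model and the same description, so reads could be divided between near-identical copies and their values are uncertain. For counts of members with peaks they are a single name. Among 294 pairs of table rows that share a transcript model in this way, the median difference in log2 fold change was 0.33, and 16 pairs differed by less than the 0.019 between the Scl copies. In 25 of the 294 pairs the copies had opposite signs.

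GataC followed with a log2 fold change of 1.17 (2.25-fold; adjusted p = 2.47e-06 in the authors' deposited table). Ese was lowest of the positive members at 0.93 (1.91-fold; adjusted p = 3.81e-08 in the authors' deposited table). Among the 1714 positive genes, 23.2% had a larger value than the higher Scl copy, 34.9% a larger value than GataC and 49.8% a larger value than Ese. Ese therefore lay at the middle of the positive genes by size, while by adjusted p it ranked 316 among all table genes.

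Z166 stood at -1.34 on the log2 scale (adjusted p = 6.14e-09 in the authors' deposited table), with the lowest adjusted p of the members and rank 250 in the table. This is a linear ratio of 0.394. Of the 1828 negative genes, 40.0% lay further from 0. By size of the change irrespective of sign, 4 of the 5 rows reached 1 or more on the log2 scale, as did 53.9% of table genes, and Ese was the exception.

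**Figure D1:**
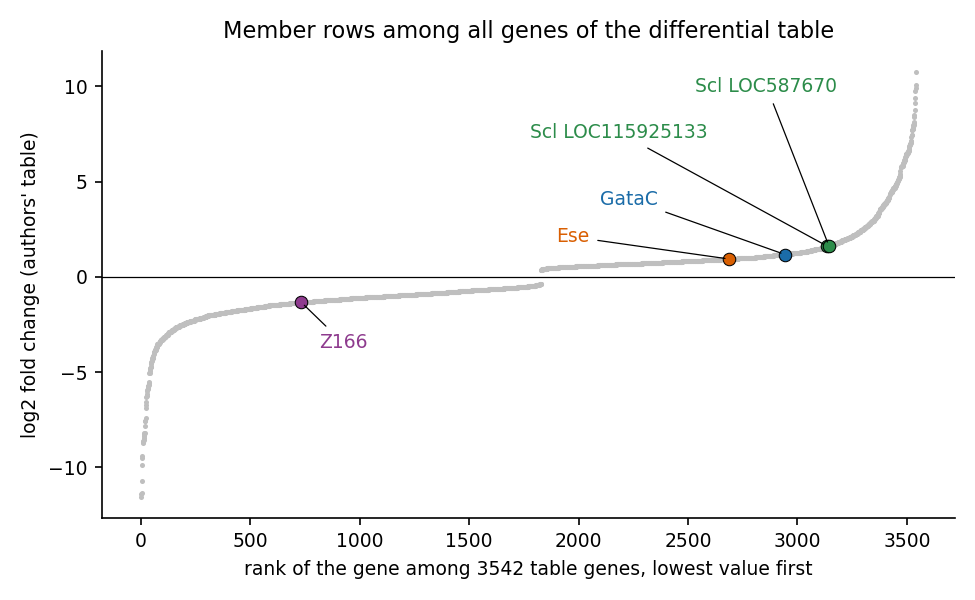
Log2 fold change of the 3542 genes of the authors' deposited table (y axis) in order of their value (x axis, rank), each grey point a gene and the member rows coloured. Scl, GataC and Ese lie between 0.93 and 1.62 and Z166 lies at -1.34, all well inside the range of the table.

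The table gives no error for its fold changes. If its p-values are two-sided Wald tests of the printed fold changes, which is how DESeq2 works by default but is not stated for this file, the standard errors would be 0.221 for GataC, 0.151 for Ese, 0.337 and 0.361 for the Scl copies and 0.209 for Z166. The 95% intervals on the log2 scale would then run from 0.74 to 1.60 for GataC, from 0.64 to 1.23 for Ese, from 0.96 to 2.28 for Scl (LOC587670), from 0.89 to 2.31 for the other copy, and from -1.75 to -0.93 for Z166. On that reading the intervals of the positive members overlap each other. Differences between members were not tested, so their order by size rests on the printed values alone. In RNA of whole embryos, fewer cells of a type and less RNA per cell cannot be told apart.

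With a single fold change per gene, likeness to a member can be measured only by the distance between fold changes, over 1 comparison. The named rows nearest to GataC in the authors' deposited table were L3mbt (LOC580021) at 1.17 and the zinc finger gene Z155 (LOC583226) at 1.17. Those nearest to Ese were a phosphatase 2A subunit gene (LOC100888421) at 0.93 and Arsa (LOC105441495) at 0.93 in the authors' deposited table. Nearest to the Scl copies were the zinc finger genes Z50 (LOC100888304, 1.61) and Z141 (LOC100891950, 1.63), the matrix metalloprotease gene Mmp1/3L1 (LOC579968, 1.61) and Tsp1/Ig (LOC580296, 1.63) in the authors' deposited table. Nearest to Z166 was the adenylosuccinate lyase gene Adsl (LOC115917983) at -1.34 in the authors' deposited table.

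Other regulators related to blood and immune cells also fell on both sides. Of 40 names in this list, 12 were in the table on 13 genes, 8 positive and 5 negative, with a median log2 fold change of 0.64. Leaving out the members, 4 were positive and 4 negative, with a median of -0.02. The ETS factor Erg, another regulator of the mesoderm, had -1.41 (adjusted p = 1.17e-05 in the authors' deposited table), opposite in sign to the ETS factor Ese. Irf4, named for the interferon regulatory factors, had -1.44, Mitf, which governs pigment cells in vertebrates, -1.18, and Id (LOC115918565), named for inhibitors of helix-loop-helix factors such as Scl, -0.61 in the authors' deposited table. On the positive side, Myb had 1.12, the NF-kappaB family gene Rel 0.71, the ETS factor Elk 0.64 and the zinc finger factor Egr 0.57 in the authors' deposited table. The other 28 names of the list, Runt1, Ets1/2, Prox1 and GataE among them, are not in the table by exact name. This does not tell an unchanged gene from an unmeasured one or from one listed under another name.

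**Figure D2:**
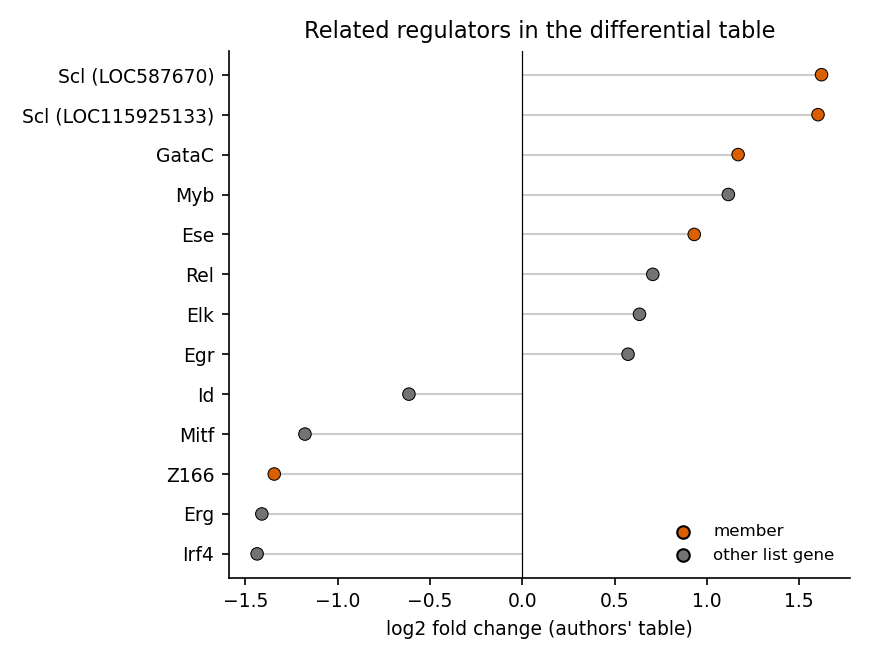
Log2 fold change in the authors' deposited table (x axis) of the 13 genes of the related regulator list, 1 row each, members in orange and other genes in grey. The 8 positive genes run from 0.57 (Egr) to 1.62 (Scl) and the 5 negative ones from -0.61 (Id) to -1.44 (Irf4).

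Genes that share a member's protein domain, grouped after their values were seen, differed in their split from domain to domain, and no test was made. Of all table genes, 48.4% were positive. Rows with an Ets domain were Ese, Erf (0.72), Elk (0.64) and Erg (-1.41) in the authors' deposited table. The only other row with a GATA zinc finger was Gata2a (LOC578894) at 0.52 in the authors' deposited table. Of 10 rows with a helix-loop-helix domain, 3 were positive, the Scl copies and Mlx/Ip (0.82), and 7 negative, the lowest being a Ptf1a copy (LOC581998) at -4.41 in the authors' deposited table. Of 62 rows with C2H2 zinc fingers, 48 were positive and 14, Z166 among them, negative. For these rows the median log2 fold change was 0.89, and many of them are copies that share a name.

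Of the other blastocoelar markers, 2 were in the table by exact name, 1 positive and 1 negative, with a median log2 fold change of -0.32. ShR2 (shr2), an orphan steroid hormone receptor gene, had 0.77 (adjusted p = 0.00126 in the authors' deposited table), and the other was Erg at -1.41 in the authors' deposited table. Hex, Prox1 and MacpfA2 are not in the table by exact name. The receptor tyrosine kinase gene Tie1/2, matched to the list's Tie1 after its value was seen, had -3.11 in the authors' deposited table. Scavenger receptor cysteine-rich genes, a family of immune receptors, were matched by the start of the name, also after the fact. Of 11 such rows 10 were negative and 1 positive, from -2.06 to 0.91 in the authors' deposited table. Several are copies of each other, and 1828 of all 3542 table genes were negative. Of 5 rows named for Toll-like receptors, matched in the same way, 2 were positive and 3 negative, from -1.99 to 1.76 in the authors' deposited table. The files do not place these receptor rows in a cell type.

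Markers of neighbouring cell types that are in the table lay mostly on the negative side. Over the whole table, with a median log2 fold change of -0.51, 1828 of the 3542 genes were negative. Pigment cell markers were negative for 6 of 7 genes with a median log2 fold change of -1.60, the exception being Gcm (0.76 in the authors' deposited table). Primary mesenchyme markers were negative for 5 of 6 genes (median -1.12), aboral ectoderm markers for 6 of 6 (median -1.44) and oral ectoderm markers for 4 of 4 (median -2.04). Apical markers were negative for 4 of 4 (median -1.11) and endoderm markers for 2 of 3 (median -0.67). No marker of muscle or coelomic pouch is in the table by exact name. These counts include copies of a name, so that the 6 primary mesenchyme genes carry 4 names, the 7 pigment cell genes 6, the 6 aboral genes 5, and the 4 oral and 4 apical genes 3 each. Names found in the table were 6 of 9 for pigment cells, 4 of 10 for primary mesenchyme and 3 of 7 for endoderm. For aboral ectoderm they were 5 of 6, and for oral ectoderm and apical markers 3 of 5 each. The other names of these lists have no direction here. The positive endoderm marker is brachyury, the target of the morpholino. The negative ones are FoxA (-0.67) and Hnf6 (-0.92) in the authors' deposited table. Hnf6 also stands in the list of pigment cell and other mesoderm genes, so the endoderm count says little about endoderm. Both genes of the Notch ligand Delta were positive, at 1.02 (delta) and 1.46 (LOC115921237) in the authors' deposited table. The part of cell composition in the members' values was not tested.

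Brachyury peaks lay at GataC, Ese and Z166 but not at Scl. The peak lists name Spur_5.0 scaffolds, and the RefSeq table gives positions without scaffolds, so scaffolds were assigned to genes by matching the order of the table's blocks to the scaffold names. Peak score, signals, fold over input and false discovery rate are the authors' own. All peaks within a list have the same width, and those of library 1 are narrower. In 7458 of 7459 peaks of library 2 and in all 1484 of library 1, the score equalled the antibody signal minus the input signal, times the authors' distribution score, within 0.02. Exons, introns and strand are not given in the files used here, so peaks are placed by distance along the gene span.

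GataC lies at NW_022145612.1:11500266-11556165, a span of 55.9 kb. It held 8 peaks of library 2, none of library 1 and none of the combined set. From the low-coordinate end their scores were 0.53, 0.56, 0.59, 0.74, 0.57, 0.52, 0.57 and 0.78, and their folds over input 1.81, 2.17, 1.87, 3.27, 1.80, 1.90, 2.32 and 2.36. They were thus spread along the gene, at 12.0% of its length for the first and 99.8% for the last, with a group of 3 between 12.0% and 20.3% and another of 3 between 88.8% and 99.8%. The highest, at 11555935 to 11556218, straddled the high-coordinate end with 231 of its bases inside the span, and its antibody signal was 1.36 against 0.57 in the input. The second, at 11522927 to 11523210, had the largest fold and the lowest input signal of these peaks, 0.33. All 8 had a false discovery rate between 17.53% and 39.62%.

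Ese lies at NW_022145603.1:13624549-13646771, a span of 22.2 kb. It was the only member with a peak in both antibody libraries, which 3.51% of protein-coding genes of all lengths had. Longer genes have peaks more often. Among genes of 20 to 40 kb, 8.28% had a library 1 peak, beside 5.82% of all. The library 1 peak, at 13624451 to 13624586, straddled the low-coordinate end with 38 bases inside the span. It had a score of 0.81, a fold of 6.09, an antibody signal of 0.97 against 0.16 in the input, and rank 172 of 1484 in its list. The library 2 peak, at 13635538 to 13635821, lay at the middle of the gene (50.1% of the span). It had a score of 0.82, a fold of 2.51, signals of 1.37 and 0.55, and rank 2513 of 7459. The peaks do not overlap, so the libraries did not mark the same region. Their false discovery rates were 23.04% and 13.85%.

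Z166 lies at NW_022145610.1:34738895-34772889, a span of 34.0 kb, with 6 peaks of library 2 and none of library 1 or the combined set. Scores from the low-coordinate end were 0.62, 0.64, 0.50, 1.08, 0.56 and 0.60, with folds of 2.09, 2.57, 1.52, 3.08, 2.11 and 1.98. The peaks formed a pair at 22.5% and 23.3% of the span whose edges overlap, a group of 3 between 58.3% and 66.1%, and a last peak 7745 bp beyond the high-coordinate end. The peak at 34760058 to 34760341 stood out from the rest. Its antibody signal was 1.60 against 0.52 in the input, it ranked 1039 in the list, and its false discovery rate of 6.13% was the only one under 10% at any member.

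**Figure D3:**
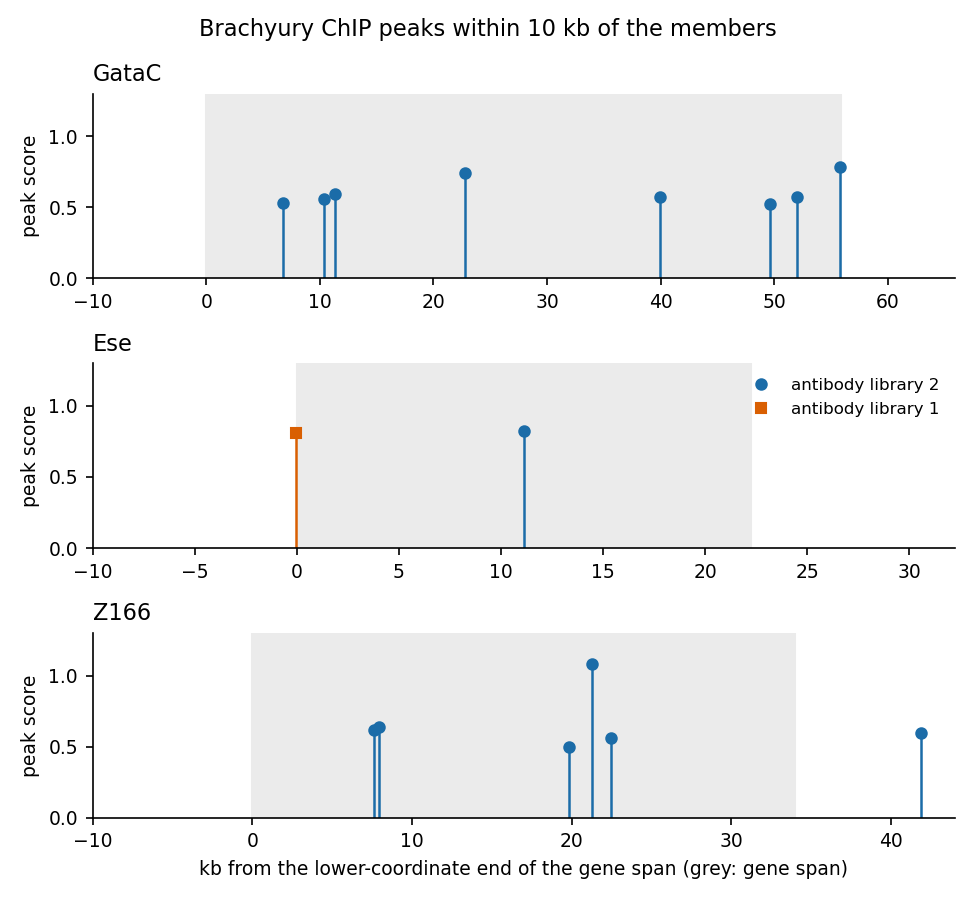
Score of each peak within 10 kb of GataC, Ese and Z166 (y axis) by the position of its midpoint in kb from the low-coordinate end of the gene span (x axis; grey marks the span; blue circles are antibody library 2 and the orange square is library 1). GataC has 8 low peaks along its whole span, Ese has 1 peak of each library at different places, and Z166 has 6 with a highest score of 1.08.

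Scl had no peak of either library. ChIP reads of 50 bp from near-identical copies can map to more than 1 place. How such reads were treated is not stated, so a missing peak does not show absent binding. The copy LOC587670 lies at NW_022145609.1:5680496-5697117, a span of 16.6 kb, and the nearest peak of library 2 was 725 kb away and that of library 1 1510 kb away. The copy LOC115925133, a span of 14.6 kb, lies on a smaller scaffold that was not identified. No peak of any list on any smaller scaffold fell within 10 kb of its positions, so none can belong to it.

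Members with a library 2 peak were therefore 3 of 4, where 21.5% of protein-coding genes had such a peak. For library 1 they were 1 of 4, where 5.82% of genes had a peak, and for the combined set 0 of 4, where 1.61% had a peak. The share rises with gene length. It was 21.3% for library 2 among genes of 10 to 20 kb, 29.9% for 20 to 40 kb and 40.3% for 40 to 80 kb, and all 4 located genes are longer than 16 kb. These 4 genes are too few to set apart from these shares, and no test was made.

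GataC and Z166 had many library 2 peaks for their length, but at a score of at least 1 GataC kept 0 and Z166 kept 1. Of the 24774 protein-coding genes placed on scaffolds, 0.113% had at least the 8 peaks of GataC and 0.363% at least the 6 of Z166. Among genes at least as long as each, the shares were 1.49% and 2.16%. Peak density in the window of GataC was 105 per Mb against 16.3 per Mb over its scaffold, and at Z166 it was 111 against 8.91 per Mb. The scaffold of GataC is among the most densely marked, as the scaffolds run from 2.16 to 20.2 library 2 peaks per Mb with a median of 7.29.

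**Figure D4:**
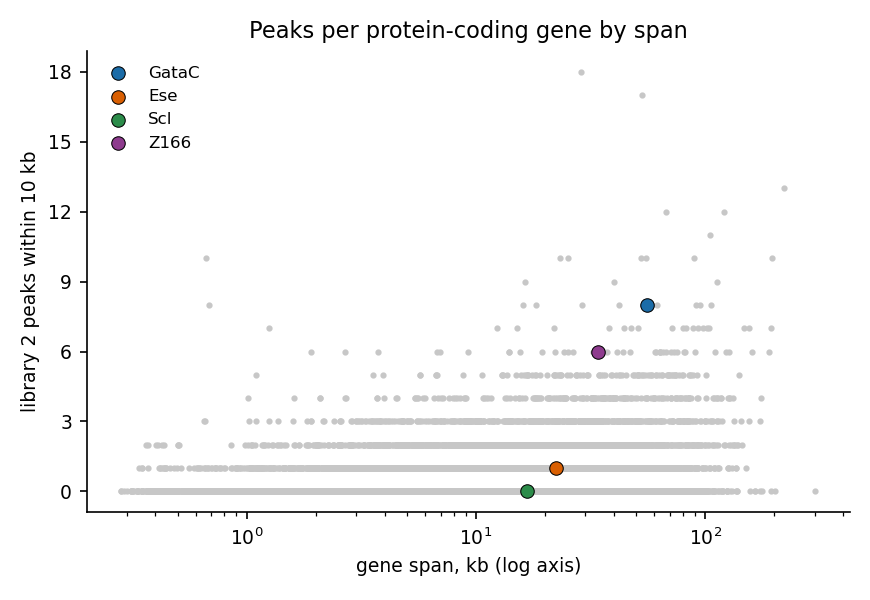
Number of library 2 peaks within 10 kb (y axis) against gene span in kb (x axis, log scale) for 24774 protein-coding genes, grey, with the located members coloured. GataC with 8 and Z166 with 6 peaks lie in the upper part of the plot, Ese has 1 and Scl has 0.

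The peaks at the members were mostly weak for their list. Of the 15 library 2 peaks, 4 had a score above the list's median of 0.72 and 4 a fold above its median of 2.36, and 1 had a false discovery rate under 10%, as did 21.8% of the whole list. Their median input signal of 0.57 equalled the 0.57 of the list. The library 1 peak at Ese was above the medians of its list, which are 0.57 for score and 3.52 for fold. For scale, the highest library 2 peak at the brachyury gene scored 9.91. The combined set holds 488 of the 7459 library 2 peaks (6.54%), with a median score of 2.18. Of the 6421 library 2 peaks that scored no higher than the best peak at Z166, 60 are in it.

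**Figure D5:**
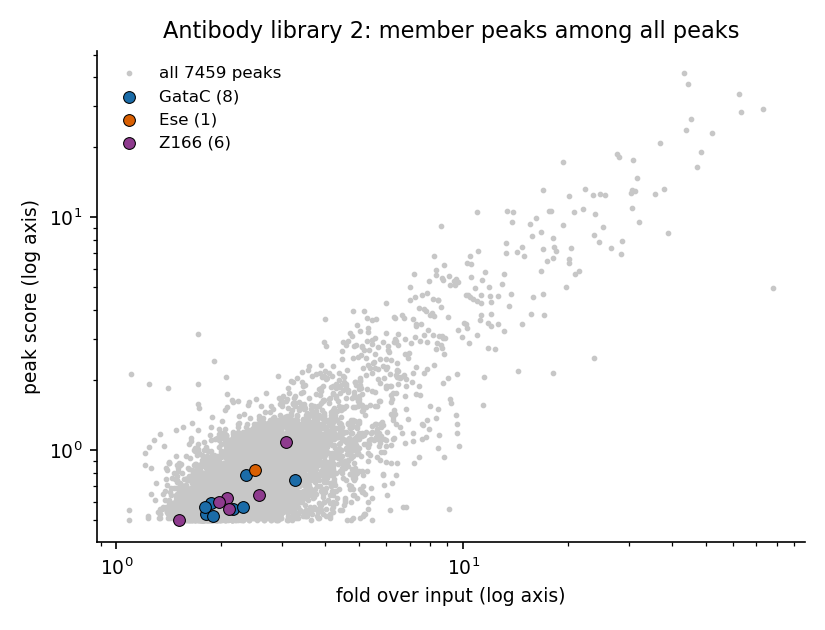
Peak score (y axis, log scale) against fold over input (x axis, log scale) for all 7459 peaks of antibody library 2, grey, with peaks within 10 kb of GataC, Ese and Z166 coloured. The member peaks lie at scores from 0.50 to 1.08 and folds from 1.52 to 3.27, in the low and dense part of the list.

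Beyond 10 kb, a peak of the combined set lay near Ese. It stood at 13574616 to 13574899, 49.6 kb outside the low-coordinate end, with a score of 2.74, a fold of 11.75, an antibody signal of 2.99 against 0.25, a false discovery rate of 13.98% and rank 203 in library 2. Ese was the protein-coding gene nearest to it, and the next such gene on that side of Ese begins 143 kb away. A weaker library 2 peak (score 0.70) lay 40.8 kb from Ese on the same side. The nearest combined peaks of the other members were 770 kb from GataC, 114 kb from Z166 and 7980 kb from Scl (LOC587670).

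Members with a peak had both signs, and a link between peaks and direction was not tested. GataC (8 peaks) and Ese (1 of each library) were positive, and Z166 (6 peaks) was negative. Both Scl copies, which had the largest positive values, had no listed peak, within the limit that near-identical copies set. Of 8 other related regulators, all on placed scaffolds, 5 had a library 2 peak, 0 a library 1 peak and 0 a combined peak. Over all protein-coding genes these shares were 21.5%, 5.82% and 1.61%. ShR2 also had 6 library 2 peaks. Among pigment cell and other mesoderm genes, 5 of 17 had a combined peak, beside 1.61% of protein-coding genes. These 17 genes carry 14 names, and Gcm had 2 such peaks. Some also count as markers of other cell types above. Six3, 1 of the 5, is also an apical marker, Nk1 an oral ectoderm marker and Hnf6 an endoderm marker. None of the 8 protein-coding genes that flank the located members is in the differential table, where 11.8% of protein-coding genes are. These 8 are too few to set apart from that share.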

How the data were processed

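Purple sea urchin blastulae were profiled by RNA-seq (3 morphant and 3 control libraries, paired reads of 100 bp) and ChIP-seq (2 antibody and 2 input libraries, single reads of 50 bp). Tools named per the submitters' processing notes, without roles, are BWA 0.7.17, DESeq2 1.28.1, Salmon 0.11.3 and Trimmomatic 0.38. Neither the peak caller nor the way the authors merged the lists is named in these sources. The authors deposited a log2 fold change, p-value and adjusted p-value per gene, with no values per library, so nothing was fitted anew and the planned count or limma test was not run. Per the file headers, peaks carry a score, antibody and input signal, a fold (ratio) over input, a distribution score given as a fraction, and a false discovery rate in percent, as deposited, on a scale that is not stated.

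Gene positions came from the RefSeq table of Spur_5.0, which matched all 3542 table genes. It has 21 blocks longer than 20 Mb, and these were matched, keeping their order, to the 21 scaffolds with more than 100 library 2 peaks. In all 21 pairs every peak ended before the last gene end. Positions count from 1. Peaks were kept when any base lay within 10 kb of a gene span. Counting was tested on simulated peaks. The members and lists were chosen with earlier results of these data known. Named genes are the members, brachyury, list genes in the table (up to 8 a list), flanking genes with a peak inside them and the 2 named rows nearest in fold change. A row that this rule also names is not reported here. Other genes are named as chosen after their values were seen. Genome and promoter sequence were not used here, so motifs were not searched. Software was matplotlib 3.10.9, scipy 1.17.1, pandas 2.3.3 and numpy 2.4.6 under Python 3.11.15.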

Additional observations from a re-analysis of the deposited data

How the results depend on the processing

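No paired analysis was possible because the differential table gives a single fold change per gene and no values per library, and for the same reason no replicate could be left out. At an adjusted p under 0.01, which all 5 member rows pass, 4 were necessarily positive as before. At a log2 size of 1 or more, or with 1 gene per name, 3 were positive. Positive related regulators fell from 8 to 4 both at that fold limit and without the members, because fewer genes were counted. At 5 kb and 20 kb the members with peaks were the same in number, and 15 library 2 peaks became 14 and 15. At 50 kb, library 1 gave 2 peaks and the combined set 1 peak at 1 member. Of 2 settings chosen after seeing the data, leaving out Z166, the only negative row, could not change the 4 positive rows. Counting overlapping peaks once gave 14 library 2 peaks. Stricter peaks removed most of them. A score of at least 1 left 1 library 2 peak at 1 member and 0 library 1 peaks at 0 members, a false discovery rate under 10% left the same numbers, and a fold of at least 5 left 0 library 2 peaks at 0 members but kept the library 1 peak, 1 at 1 member. Each antibody library has 1 list, so no peak has a replicate check. Unknown depth and the near-identical copies limit what a missing peak at Scl shows.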
